A study of Mus musculus with 6 samples.

Results

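Plagl1, Serpina1c, Spi1-6 and Ahsg are 4 of the 11138 gene symbols on these arrays, chosen because their deposited ratios were higher at 6 weeks of tobacco smoke. All 4 were found in the probe table, each with 2 spots, although Serpina1c and Spi1-6 may be 1 gene. The measured ratios made the choice, so their values are given as a description. The label that grouped these genes calls them late-rising. Plagl1, Serpina1c and Spi1-6 were lower on every 1-week array than on every 6-week array, whereas the ratios of Ahsg at the 2 exposure times overlapped, and Ahsg was already positive on every 1-week array.

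RNA of endothelial cells sorted from mice exposed to smoke was compared with RNA of endothelial cells from control mice on 6 arrays of 2 channels, with the smoke sample in channel 1 and the control in channel 2 on all of them. Of these arrays, 3 hold 1-week smoke beside a control whose age was not given, and replicate 1 of them was a dye reversal. The remaining 3 hold 6-week smoke: 2 carry the 1-week control, the second with the dyes of the first reversed, and 1 carries the 6-week control. Strain, age, sex, tissue, sort markers, smoke dose and the number of animals pooled were not given in the sources used here, so p-values measure the spread between arrays, which may be technical. The files hold ratios and no levels, so the labelled cell type could not be checked against the level of its markers.

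A log2 ratio of 1 is a 2-fold difference between the channels. Neither the numerator of the ratio nor whether a dye-reversed array was turned before deposit is stated; titles and channels put smoke first, so a positive value is read as likely higher after smoke. Ratios were centred on each array's median, and the spots of a gene were averaged. A change in the number of cells of a type in the sort and a change in RNA per cell cannot be told apart in these bulk samples.

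Plagl1, also called Zac1, is a zinc finger transcription factor expressed from the paternal allele, known for restraining proliferation and for its place in a network of imprinted growth genes. Serpina1c belongs to the mouse cluster of alpha-1-antitrypsin genes, whose products are secreted by the liver, circulate in plasma and inhibit neutrophil elastase and other serine proteases. Ahsg encodes fetuin-A, a liver-secreted plasma glycoprotein that binds calcium phosphate and keeps it from precipitating in soft tissue. RefSeq (GRCm38.p6) lists Spi1-6 as a synonym of Serpina1c, while the probe table gives the Spi1-6 probe an identifier of its own that RefSeq's table does not hold. The pair are therefore separate probes for the antitrypsin cluster and are not counted here as separate genes with certainty.

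The 250 bases before the start site are printed for the 3 members held by the RefSeq promoter table (build GRCm38.p6), 5′ to 3′. They describe these genes and not imprinted or liver-type genes as classes. For Plagl1 (chr10:13090582-13090831, plus strand) capitals mark CG dinucleotides. For Serpina1c (chr12:103904951-103905200, minus strand) they mark GTTAAT, part of the palindromic site of the hepatocyte factor HNF1. For Ahsg (chr16:22891765-22892014, plus strand) they mark a match to TTGCNNAA, a C/EBP motif, on the reverse strand.
Plagl1: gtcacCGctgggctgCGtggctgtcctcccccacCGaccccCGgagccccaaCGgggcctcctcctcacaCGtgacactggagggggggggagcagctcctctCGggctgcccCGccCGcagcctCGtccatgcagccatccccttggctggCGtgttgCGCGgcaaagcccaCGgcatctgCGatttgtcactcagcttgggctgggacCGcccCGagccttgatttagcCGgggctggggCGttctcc
Serpina1c: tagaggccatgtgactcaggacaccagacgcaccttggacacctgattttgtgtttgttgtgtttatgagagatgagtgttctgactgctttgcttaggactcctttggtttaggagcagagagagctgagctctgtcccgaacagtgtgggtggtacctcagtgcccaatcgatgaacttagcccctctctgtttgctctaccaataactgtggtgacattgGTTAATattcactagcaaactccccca
Ahsg: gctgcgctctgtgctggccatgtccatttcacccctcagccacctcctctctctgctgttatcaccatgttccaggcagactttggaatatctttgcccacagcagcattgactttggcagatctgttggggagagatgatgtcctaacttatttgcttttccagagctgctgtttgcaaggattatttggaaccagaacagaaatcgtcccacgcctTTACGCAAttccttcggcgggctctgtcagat

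The Plagl1 window held 19 CG dinucleotides and 70.4% G and C, against medians of 6 and 52.4% over 32851 promoter windows of the same length. No more CG dinucleotides than in Plagl1 were held by 82.1% of the windows. Serpina1c held 3 CG dinucleotides and Ahsg held 6. GTTAAT on either strand was found in 6.43% of all windows, TTGCNNAA in 9.56%, the TATA motif TATAAA in 12.4% and GGGGCCCC, a motif bound by Plagl1, in 0.889%. Neither TATAAA nor GGGGCCCC was found in the 3 windows, and the matches shown overlap no other match. A stretch of 55 bases was identical before the start sites of Serpina1a, Serpina1b, Serpina1c, Serpina1d and Serpina1e, the 5 close copies of the cluster, and holds the same GTTAAT in capitals.
Serpina1a to Serpina1e: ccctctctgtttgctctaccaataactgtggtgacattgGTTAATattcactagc

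These matches describe letters only and were not tested as sites. The Serpina1c window was 95.9% identical to that of Serpina1a over 243 aligned positions, 91.6% to Serpina1b over 250, 91.7% to Serpina1d over 240 and 95.5% to Serpina1e over 199. Probe sequences were not analysed here, so how far each antitrypsin probe reads the other copies is uncertain.

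Plagl1 had the highest 6-week mean of the 4 probes. Its log2 ratios were 2.23 on the array of 6-week smoke against 1-week control, 2.30 on the dye reversal and 2.14 against 6-week control. All 3 arrays were high, and the spots of a pair differed by at most 0.35 log2 units on any array. The arrays with exchanged dyes averaged 2.26 and counted as 1 replicate, which gave a 6-week mean of 2.20 ± 0.08 (SD, n = 2), or 4.61-fold. After 1 week the ratios were 0.85, 0.42 and 0.54, a mean of 0.60 ± 0.22 (SD, n = 3), or 1.52-fold. The highest 1-week array lay far below the lowest 6-week array, 0.85 against 2.14.

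Serpina1c had ratios of 1.47, 2.17 and 2.36 on the 6-week arrays in the same order. The array against 6-week control was the highest, and the mean was 2.09 ± 0.38 (SD, n = 2), or 4.26-fold. Its 1-week ratios were 0.51, 0.55 and 0.43, with a mean of 0.50 ± 0.06 (SD, n = 3). The 1-week arrays were close together and did not overlap the 6-week arrays.

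Spi1-6, the second antitrypsin probe, stood at 1.32, 2.0 and 1.71 after 6 weeks, with a mean of 1.69 ± 0.04 (SD, n = 2), or 3.22-fold. Averaging the arrays with exchanged dyes, at 1.32 and 2.0, made this SD small. After 1 week Spi1-6 stood at 0.57, 0.23 and 0.01, with a mean of 0.27 ± 0.29 (SD, n = 3). The last of these was at 0, since its spots there lay on opposite sides of it. The 1-week and 6-week arrays did not overlap. On the 6 arrays Spi1-6 was below Plagl1 each time, by 0.19 to 0.90, and below Serpina1c on 5.

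Ahsg stood at 1.08, 2.0 and 1.52 after 6 weeks, with a mean of 1.53 ± 0.01 (SD, n = 2), or 2.89-fold. The small SD arises after averaging, because the arrays with exchanged dyes ran from 1.08 to 2.0. After 1 week its ratios were 1.26, 0.72 and 0.85, with a mean of 0.94 ± 0.28 (SD, n = 3), or 1.92-fold. The highest 1-week array, 1.26, exceeded the lowest 6-week array, 1.08, so the groups overlapped. On each 1-week array Ahsg was above the other 3 probes. On the 6-week arrays it was below them, except that it was level with Spi1-6 on the dye reversal.

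**Figure D1:**
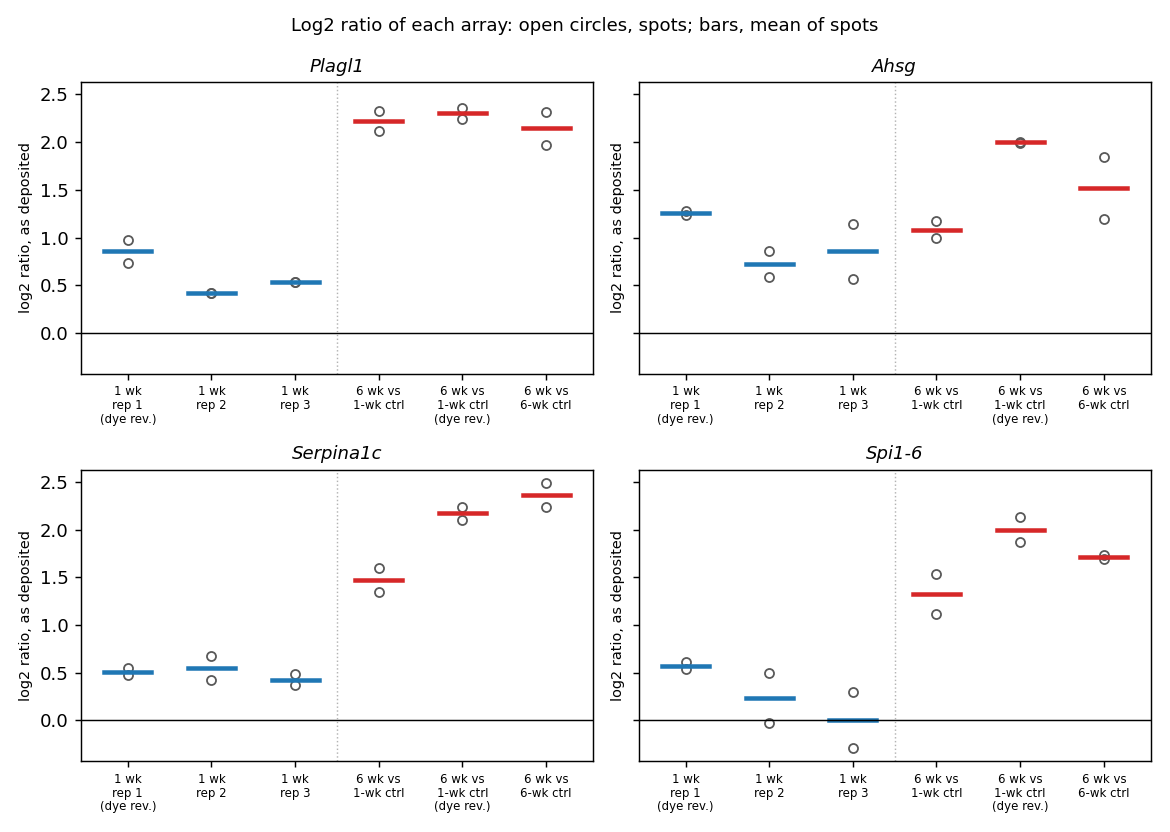
Log2 ratio as deposited (vertical axis) on each of the 6 arrays (horizontal axis) for Plagl1, Ahsg, Serpina1c and Spi1-6; open circles are spots, blue bars the 1-week and red bars the 6-week mean of the spots. Plagl1 lies between 2.14 and 2.30 on the 6-week arrays and at or below 0.85 on the 1-week arrays, while the ratios of Ahsg overlap between the exposure times.

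The 6-week arrays all exceeded the 1-week arrays for 3 of the 4 probes, where 4.39% of the 19242 features tested did so, and all 4 had a 6-week mean over 1, where 1% did so. Both counts follow from how the genes were chosen. By 6-week mean among the 11138 symbols, Plagl1 ranked 3, Serpina1c 5, Spi1-6 11 and Ahsg 18. By 1-week mean the ranks were 447, 720, 1905 and 108. Ahsg therefore led the 4 probes at 1 week and came last at 6 weeks.

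The sign given to the 6-week dye reversal is not settled, and these values depend on it. Over all named genes the correlation of this array with the one it reverses was -0.03, and 0.05 over genes with agreeing spots, whereas with the 1-week dye reversal it was 0.27 and 0.43. Turned, it would put Plagl1 at -2.30, Serpina1c at -2.17, and Spi1-6 and Ahsg at -2.0, below all their 1-week arrays. The mean of the pair would then be -0.04 for Plagl1, -0.35 for Serpina1c, -0.34 for Spi1-6 and -0.46 for Ahsg. The 6-week means would be 1.05 for Plagl1, 1.01 for Serpina1c, 0.69 for Spi1-6 and 0.53 for Ahsg, positive through the array against 6-week control, and that of Ahsg would lie below its 1-week mean of 0.94. On the 4 arrays without dye reversal alone, a setting chosen after the data were seen, they were 2.18, 1.92, 1.52 and 1.30 in that order, and the 1-week means were 0.48, 0.49, 0.12 and 0.79. The 6-week order of the 4 probes was the same there. Each control age gave positive values for all 4: against 6-week control alone the values were 2.14, 2.36, 1.71 and 1.52, and against 1-week control alone, with the signs as deposited, 2.26, 1.82, 1.66 and 1.54.

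**Figure D2:**
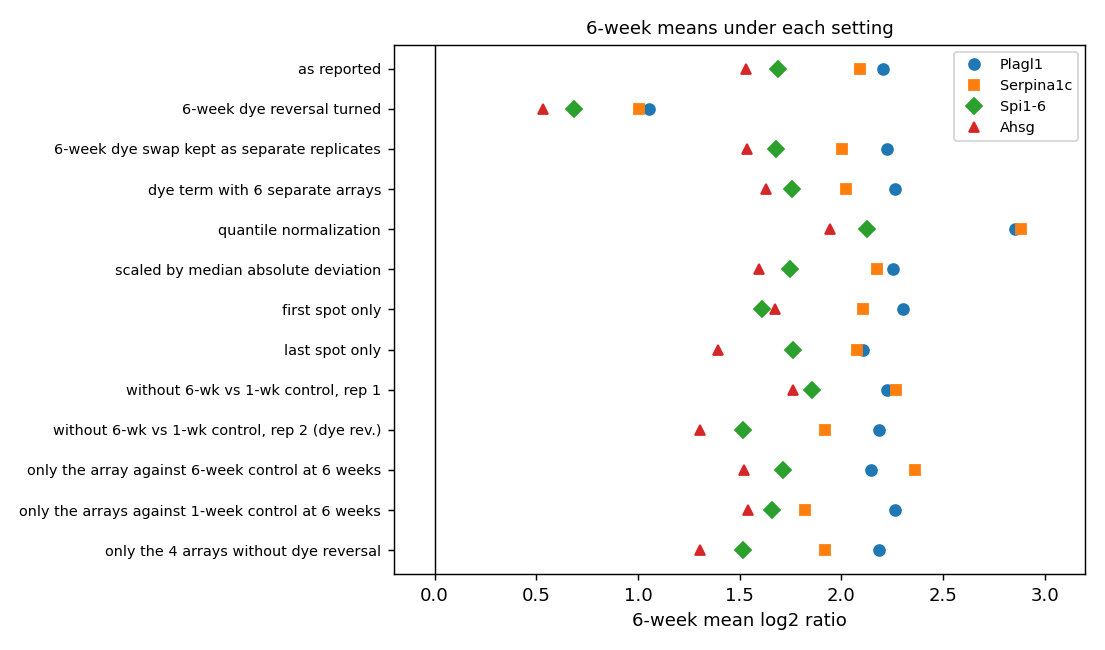
The 6-week mean log2 ratio (horizontal axis) of the 4 probes (symbols) under each choice of processing or arrays (vertical axis). Means are lowest with the 6-week dye reversal turned, at 0.53 for Ahsg to 1.05 for Plagl1, where they are positive through the array against 6-week control.

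After 1 week the 4 probes were positive but smaller. All 4 were positive on all 3 1-week arrays, where 11.7% of the features tested were, and on all 6 arrays, where 2.21% of features were. Both counts include Spi1-6 at 0.01 on replicate 3, with spots of 0.30 and -0.29. None of the 4 probes had a 1-week mean over 1, where 1.9% of features did. Being grouped as late-rising can depend on the 1-week ratios too, so nothing is read from these counts, and the fit that follows is no independent test of the 4 probes. The 1-week means were 0.94 ± 0.17 (SE) for Ahsg, 0.60 ± 0.16 for Plagl1, 0.50 ± 0.17 for Serpina1c and 0.27 ± 0.17 for Spi1-6. In limma with Benjamini-Hochberg correction across the 19242 features, 0 features passed at 1 week (0%), while 1280, or 6.65%, had an unadjusted p under 0.05. The robust form of limma passed 0 as well, with 1241 at an unadjusted p under 0.05.

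Among the 5625 genes with agreeing spots (all under 1 log2 unit apart on each array), limma passed 1.81% at 1 week, and Ahsg was the single probe of the 4 among them, at an adjusted p of 0.026. It did not pass on the 1-week arrays alone (limma adjusted p = 0.0829) or with the 6-week dye reversal turned (limma adjusted p = 0.239). With both dye-reversed arrays turned, the 1-week means were 0.11 for Ahsg, 0.03 for Plagl1, 0.16 for Serpina1c and -0.11 for Spi1-6.

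The probes of Serpina1a, Serpina1b and Serpina1d were positive on the 6-week arrays too. Their spots lay furthest apart on the dye reversal for Serpina1b and on 1-week replicate 3 for Serpina1a and Serpina1d. On the 6-week arrays Serpina1d had spots of 0.67 and 1.13, 2.27 and 2.03, and 0.55 and 0.83. Serpina1a had spots of 0.82 and 1.82 on the dye reversal. Serpina1b stood at 2.25, 0.72 and 1.93 on the 6-week arrays, with a mean of 1.71 ± 0.32 (SD, n = 2). It was higher than Serpina1c on the first array against 1-week control and 1.45 lower on the dye reversal, where its own spots were 0.06 and 1.39. Serpina1d stood at 0.90, 2.15 and 0.69, matching Serpina1c to within 0.02 on the dye reversal and lying 1.67 below it against 6-week control. Serpina1a stood at 0.95, 1.32 and 0.77. The order of Serpina1a, Serpina1b, Serpina1c and Serpina1d differed on each of the 6 arrays, so the value read for the cluster depends on the probe.

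After 1 week the copies diverged most on replicate 3. There Serpina1c was at 0.43 with spots of 0.49 and 0.37, whereas Serpina1a was at -1.66 with spots of 0.25 and -3.57, and Serpina1d was at -0.81 with spots of 0.52 and -2.13. Serpina1a and Serpina1d each had 1 negative spot there and 1 positive spot. Among these copies the paired spots of Serpina1c and Spi1-6 agreed best, to within 0.26 and 0.59 on every array, against 1.33 for Serpina1b, 2.65 for Serpina1d and 3.82 for Serpina1a.

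**Figure D3:**
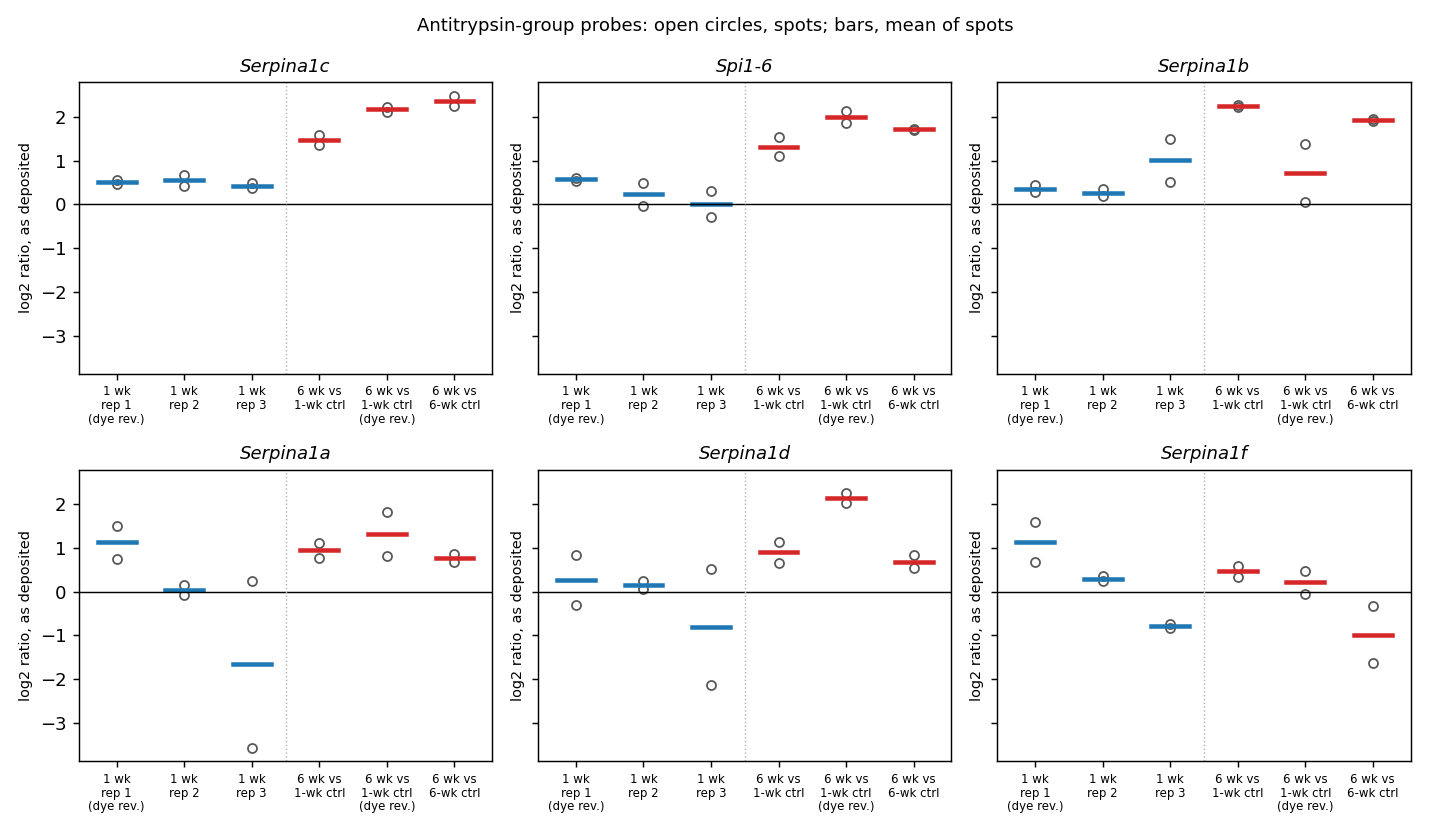
Log2 ratio as deposited (vertical axis) on each array (horizontal axis) for 6 probes of the antitrypsin group; open circles are spots and bars the mean of the spots, blue at 1 week and red at 6 weeks. The 5 probes other than Serpina1f are positive on each 6-week array, and single low spots, down to -3.57 for Serpina1a, set the lowest 1-week means.

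More distant clade A serpins had lower 6-week means. Serpina1f, which lies beside the cluster and is known from the epididymis, had 6-week ratios of 0.47, 0.22 and -0.99. Serpina3n, an acute-phase inhibitor, had a 6-week mean of -0.10, Serpina6, which carries corticosteroids in plasma, one of -0.31, and Serpina5, the protein C inhibitor, one of 0.01. Serpina9 was at 0.60 and Serpina12, the adipokine vaspin, at -0.47. Besides Serpina1c and Spi1-6, 9 clade A serpins were measured. Of these, 4 were positive on all 3 6-week arrays, namely Serpina1a, Serpina1b, Serpina1d and Serpina9. The share was 8.84% among all features and 11.7% among named genes. Of 18 measured serpins of clades B to I, 1 was positive on all 3: Serpini1, neuroserpin, with a 6-week mean of 0.86 ± 0.14 (SD, n = 2).

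The other liver-type serum protein genes had 6-week ratios spread around 0. Over 68 measured genes of this list the median 6-week log2 ratio was 0.05, against 0 for all features tested. The list had 1 gene over 1 and 1 gene under -1 at 6 weeks, where 1% and 0.993% of features were. The former was Cp, the copper carrier ceruloplasmin, at 1.04 with spots up to 2.86 apart, and the latter Apoc1, an apolipoprotein, at -1.59 with spots up to 1.36 apart. On all 3 6-week arrays 3 genes, Vtn, Cp and Apoh, were positive (4.41%, against 8.84% of all features) and 4 were negative (5.88%, against 9.68%). Vtn, the adhesive plasma protein vitronectin, had a 6-week mean of 0.81.

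The main carriers of plasma were low or split between arrays. Alb, serum albumin, had 6-week ratios of -0.08, -1.30 and -0.14, and Ttr, transthyretin, -0.46, 0.29 and 0.34. Apoa1, the main protein of high-density lipoprotein, stood at 0.11, -0.04 and 0.74. Spots of Alb, Ttr and Apoa1 lay up to 1.93, 1.11 and 1.60 log2 units apart, so their values are uncertain. Fetub and Hrg, which lie next to Ahsg and encode related plasma proteins, had 6-week means of -0.12 and 0.19. The arrays of Hrg were far apart, at 0.10, 1.76 on the dye reversal and -0.54, and those of Fetub were 0.23, -0.11 and -0.30. Among genes of the list with agreeing spots the 6-week mean ran from -0.30 for Hp, haptoglobin, to 0.45 for Cfb, complement factor B. The highest of the whole list, Cp at 1.04, was below the 1.53 of Ahsg. At 1 week the median of the list was -0.01, and 2 of its genes had an unadjusted limma p under 0.05, both with negative means.

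Hepatocyte enzymes and factors that are not secreted had small 6-week ratios. Over 30 measured genes the 6-week median was 0.03 with 0 genes over 1 and 0 under -1, and 6 were positive on all 3 6-week arrays (20%, against 8.84% of all features) and 2 negative (6.67%, against 9.68%). The medians on the 6-week arrays were 0.03, 0.07 and 0.08. Adh1, an alcohol dehydrogenase, was the highest with agreeing spots at 0.41, and Pck1, which drives gluconeogenesis, the lowest at -0.30. Hnf4a, a factor of hepatocyte identity, stood at 0.18, 0.36 and -0.75. Ratios give no level, so whether hepatocyte RNA was present at all was not tested.

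Other imprinted genes had 6-week ratios spread around 0. Over 37 measured genes the 6-week median was -0.08 with 0 genes over 1 and 0 under -1, and on all 3 6-week arrays 2 were positive (5.41%, against 8.84% of all features) and 7 negative (18.9%, against 9.68%). Igf2, the fetal growth factor that Plagl1 is known to activate, had 6-week ratios of 0.20, -0.04 and 0.01. Cdkn1c, the cell cycle inhibitor p57 and another reported target, stood at -0.07, -0.52 and 0.48, which is split around 0. With agreeing spots the highest 6-week means were 0.34 for Mkrn3 and 0.32 for Magel2, neighbouring genes of a paternally expressed domain, and the lowest were -0.33 for Slc22a18, a transporter, and -0.22 for Ndn, necdin. At 1 week 2 genes of the list had an unadjusted limma p under 0.05, both with negative means, and 0 had an adjusted one.

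The paralogs of Plagl1 did not keep the same sign across the 6-week arrays. Plag1 had 6-week ratios of 0.34, -0.26 and 0.04. Plagl2 stood at 0.73, 0.32 and -0.05, with a mean of 0.24 ± 0.41 (SD, n = 2). Over 13 measured genes of the list of PLAG factors and reported Plagl1 targets the 6-week median was 0.09, with 0 genes over 1. Socs3, a feedback inhibitor of cytokine signalling, was the highest with agreeing spots at 0.50, and Tcf4, a helix-loop-helix factor, the lowest at -0.31. Adcyap1r1, a receptor for the peptide PACAP and a reported target, stood at 0.01, -0.33 and 0.35.

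**Figure D4:**
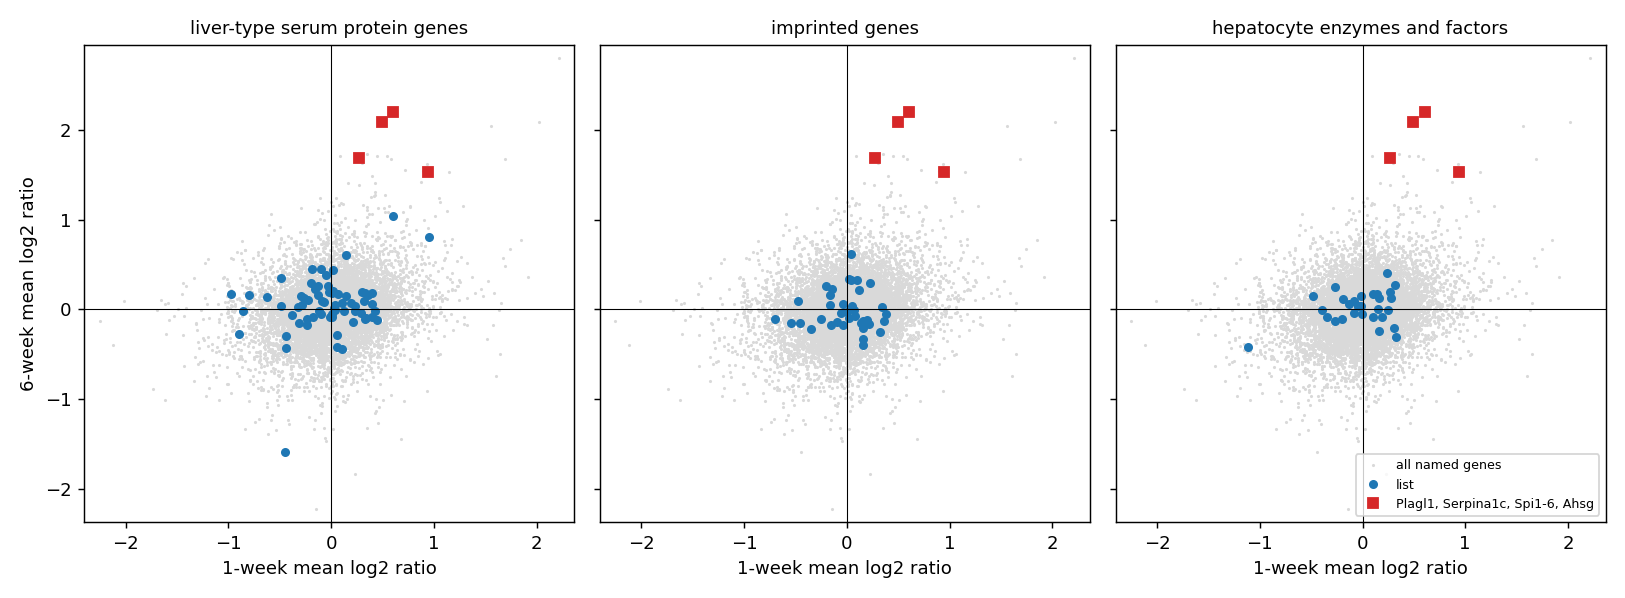
Mean log2 ratio at 1 week (horizontal axis) and 6 weeks (vertical axis) of all named genes (grey), of the genes of 3 lists (blue) and of Plagl1, Serpina1c, Spi1-6 and Ahsg (red squares). The 4 probes lie at 1.53 or above at 6 weeks, whereas the medians of the serum protein, imprinted and hepatocyte lists are 0.05, -0.08 and 0.03.

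Markers of other cells that a sort could hold had 6-week medians of -0.12 over 13 fibroblast genes, 0.06 over 17 muscle genes, -0.36 over 14 adipocyte genes, -0.01 over 19 leukocyte genes, 0.06 over 14 alveolar and airway genes and -0.19 over 8 erythroid and platelet genes. The median of 20 endothelial genes was -0.26, and those with agreeing spots ran from -0.90 for Cldn5 to 1.09 for Clec14a. By array the endothelial median was -0.21, -0.43 on the dye reversal and -0.05 against 6-week control. With the 6-week dye reversal turned, the medians were 0.04 for endothelial, 0.05 for fibroblast, -0.02 for muscle and -0.17 for adipocyte genes. They were then -0.01 for leukocyte, -0.0007 for alveolar and airway, and 0.03 for erythroid and platelet genes. Single fibroblast and mural genes were also high: Postn, periostin, at 2.25 ± 1.42 (SD, n = 2), Aspn, asporin, at 1.72 ± 0.56 and Acta2, smooth muscle actin, at 1.14 ± 0.28, while Dpt, dermatopontin, was at -0.53 and Dcn, decorin, at -0.15. Other smooth muscle genes were lower than Acta2, with Myh11 at 0.47, Tagln at 0.09 and Cnn1 at -0.05. The part of such cells in the values of Plagl1, Ahsg and the antitrypsin probes was not tested.

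The genes nearest to each probe over all 6 arrays, by Euclidean distance of the log2 ratios among 5625 genes with agreeing spots, included each other. Nearest to Plagl1 was Serpina1c at a distance of 0.88, followed by Spi1-6 at 1.22 and Ecrg4, a secreted peptide precursor, at 1.34. Nearest to Serpina1c was Spi1-6 at 0.87, then Plagl1 at 0.88 and Aspn at 0.93. Ecrg4 and Aspn also followed Serpina1c in the order for Spi1-6, at 0.99 and 1.00. Nearest to Ahsg were Ecrg4 at 0.67, Ccn2, a matricellular growth factor, at 1.00 and Septin7, a cytoskeletal GTPase, at 1.05. In the order for Ahsg, Spi1-6 came in place 12, Serpina1c in place 15 and Plagl1 in place 21. In the other direction Ahsg came in place 4 for Plagl1, 5 for Serpina1c and 6 for Spi1-6. The 4 probes were chosen by shared high 6-week values, which brings them together by construction.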

How the data were processed

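Each of 6 arrays gave 1 deposited log2 ratio for each of 32448 features. How the authors made these values from the scans is not given in the sources used here: log base, numerator, normalization and background correction are unstated. From the values, every column had a median of 3e-07, and 99.99% to 100% of its values were log2 of folds given to whole hundredths (tolerance 0.02 of that step). Between 6.76% and 12.6% of values sat exactly at the median. Intensities were not analysed here, so signal over background is unknown.

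A probe table named 24344 features with 1 symbol and 98 with several; 8006 had none. Through Entrez identifiers 24076 matched RefSeq of assembly GRCm38.p6, 268 kept the table's symbol and 0 changed. Spots were averaged per gene, giving 11138 named genes and 8104 unnamed features, 19242 tests. Columns were centred on the median and kept their deposited sign. The dye-swap pair of the 6-week comparison with 1-week control became 1 replicate by averaging, although the pair hardly correlated (r = -0.03 over named genes). limma 3.58.1 (lmFit, eBayes; R 4.3.3) was fitted to the 5 replicates with 1 coefficient per exposure time, 3 residual degrees of freedom, two-sided tests, Benjamini-Hochberg adjustment and a threshold of 0.05. The code was checked on simulated data.

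The members and gene lists were chosen with earlier results of these data known; the 1-week fit, planned as a test of the members, is given as a description because that choice may have used 1-week ratios. Genes named are the 4 members, all measured clade A serpins, the 3 nearest genes of each member, and up to 2 genes with the highest and 2 with the lowest 6-week mean of each list among genes with agreeing spots (under 1 log2 unit apart on every array). Alb, Ttr, Apoa1, Igf2, Cdkn1c, Plag1 and Adcyap1r1 were added for their known roles, and Fetub and Hrg for their position. Cp, Apoc1, Vtn, Apoh and Tagln were added after their values were seen.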

Additional observations from a re-analysis of the deposited data

Results flagged for a closer look

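Among the genes named from the lists, 4 had every 1-week array on one side of 0 and every 6-week array on the other, and the difference was not tested for any of them. Their 6-week minus 1-week mean log2 ratios were -1.73 for Ucp1, the uncoupling protein of brown fat (0.46 at 1 week and -1.27 at 6 weeks), -1.48 for Alas2, the erythroid heme enzyme (0.95 and -0.54), 0.66 for Socs3 (-0.16 and 0.50) and -0.48 for Tcf4 (0.17 and -0.31). None of the 4 probes reported here did this. How many of all features did so was not counted. Ucp1, Alas2, Socs3 and Tcf4 were named as extremes of their lists by 6-week mean, so nothing is read from their number.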

How the results depend on the processing

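The 6-week means of the 4 probes were positive under every alternative run, with the 6-week dye reversal turned through the array against 6-week control. With the 6-week dye reversal turned, alone, with the 1-week reversal or among genes with agreeing spots, they were 1.05 for Plagl1, 1.01 for Serpina1c, 0.69 for Spi1-6 and 0.53 for Ahsg. Quantile normalization gave 2.86, 2.88, 2.12 and 1.95 in that order. The first spot alone gave 2.30 for Plagl1, 1.61 for Spi1-6 and 1.67 for Ahsg, and the last spot alone 2.11, 1.76 and 1.39. A dye term with separate arrays gave 1.76 for Spi1-6 and 1.63 for Ahsg, scaling by the median absolute deviation 1.75 and 1.60, and the 4 arrays without dye reversal 1.52 and 1.30. Leaving out each array in turn gave 2.18 to 2.26 for Plagl1, 1.82 to 2.27 for Serpina1c, 1.52 to 1.86 for Spi1-6 and 1.30 to 1.76 for Ahsg. Where this left 1 replicate at 6 weeks, it was assumed to vary like the others. At 1 week the mean of Spi1-6 became -0.11 with both dye-reversed arrays turned, and that of Ahsg, 0.94, passed among genes with agreeing spots, which is no independent test. Limma passed 0 features at either time except among genes with agreeing spots. Among these genes it passed 102 at 1 week and 12 at 6 weeks. With the 6-week dye reversal turned it passed 78 of them at 1 week and 0 at 6 weeks. On the 1-week arrays alone it passed 25 of them. Settings that combine 2 changes, and the 4 arrays without reversal, were chosen after seeing the data. No paired analysis was possible because the labels carry no replicate numbers; those used here are names in deposit order, and the dye-swap pair is 1 replicate. The number of arrays limits the precision, and the causes of these shifts were not tested.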

Other observations

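Genes lying within 400 kb of each member had 6-week means near 0 except around Serpina1c, though single arrays could lie further out. Around Plagl1, 5 measured genes had 6-week mean log2 ratios from -0.04 to 0.35, and around Ahsg 10 measured genes ran from -0.12 to 0.28, with 0 over 1 in both. Around Serpina1c 8 measured genes ran from -0.47 to 1.71, and the 2 over 1 were Serpina1b and Serpina1d.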
